A study of Mus musculus with 12 samples.

Results

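The nuclear-encoded subunits of the respiratory chain were taken from the count tables as protein-coding genes whose symbols start with Ndufa, Ndufb, Ndufc, Ndufs or Ndufv and a digit, Sdha to Sdhd, Uqcr, Cyc1, Cox4 to Cox8 or Atp5. The rule used names and no measured value, and it found 87 genes among 27179 gene IDs. By symbol, complex I had 39 of them, complex II 4, complex III 9, complex IV 18 and complex V, the ATP synthase, 17. Assembly factors were left out, as were 5 symbols annotated as pseudogenes. After a filter on low counts 77 of the 87 remained: 38 of complex I, 3 of complex II, 8 of complex III, 11 of complex IV and 17 of complex V.

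Complexes I and II pass electrons from NADH and succinate to coenzyme Q, complex III passes them on to cytochrome c, and complex IV passes them to oxygen. Complexes I, III and IV pump protons across the inner mitochondrial membrane, and the ATP synthase uses the return of these protons to make ATP. In hepatocytes the chain reoxidises the cofactors reduced by fatty acid oxidation. Most subunits are nuclear genes translated in the cytosol, while a small set, subunits of complexes I, III, IV and V, is encoded and translated inside mitochondria.

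RNA came from livers of male C57BL/6 mice, separated on sucrose gradients into a pool of heavy polysomes and a pool of light polysomes. Heavy polysomes hold mRNAs with many ribosomes, but the labels do not state which gradient fractions make up the heavy pool. The groups were wild-type mice on chow (chow 1, 2 and 3, n = 3), wild-type mice on a ketogenic diet (keto 1 and 2, n = 2), and a chow-fed mouse with both eIF4E alleles carrying S209A (n = 1), which removes the serine of this cap-binding protein that MNK kinases phosphorylate. For the diet experiment the protocol gives 24 h on either food. The time label of the samples does not match this, and the protocol was followed here. Titles call chow 3 and the S209A mouse "fed", a word the protocol uses for mice with constant access to food, and name the other 4 animals by their diet. No tissue-specific driver is named for the S209A allele. Each animal gave 1 heavy and 1 light library, 12 in all, and the numbers in the titles were taken to mark separate animals, so p-values measure the spread between these samples. In such tissue RNA, fewer cells of a type and less RNA per cell cannot be told apart.

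Libraries held 3341046 to 13263355 counts, of which 356666 to 1777315 fell on nuclear protein-coding genes and 3366 to 21201 on the 87 subunit genes. Levels are given as CPM, counts scaled to the size of each library after TMM normalization. Hepatocyte markers (10 of 10 present) summed to 5980 to 13656 CPM, while 5 of 7 muscle markers, among them Myh7 and Ckm, were at 0 in every library. Per the file headers, counts of chow 3 and S209A came from HISAT2 alignments and those of chow 1 and chow 2 from Bowtie2 alignments, while the keto headers name no aligner. The keto animals share their header wording with no chow animal, so diet and that difference cannot be told apart.

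Transcription of these genes is known to depend on NRF1, on GABP (an ETS-family factor also called NRF2) and on YY1, and the promoters were searched for the letters GCGCANGCG (NRF1), CCGGAAG (ETS) and AAGATGGC (YY1), on both strands and with overlaps allowed. RefSeq windows of GRCm38.p6, 250 bases before to 50 after the annotated start, were available for 69 of the 87 genes. The NRF1 letters were in 19 of the 69 windows (27.5%), against 8.80% of 17492 protein-coding windows. The ETS letters were in 16 (23.2%, against 11.9%) and the YY1 letters in 9 (13.0%, against 3.21%). At least 1 of the 3 was in 37 windows (53.6%, against 21.2%), with a median GC content of 57.0% in the subunit windows and 56.3% in all. Matches describe letters and are not evidence of binding. Genes with none of the 3 in their window recur below too, among them Cox5b, Atp5j, Ndufa1, Ndufa10 and Atp5b, and are not shown. Stretches from 60 bases before to 30 bases from the start are shown for some recurring genes that hold a motif, with the motif in capitals. They are Cox6b1 at chr7:30626085-30626174 and Atp5h at chr11:115419890-115419979 (both ETS), Ndufa5 at chr6:24527661-24527750 and Sdha at chr13:74350211-74350300 (both NRF1), and Atp5pb at chr3:105959234-105959323 (YY1). All are on the minus strand and are written 5′ to 3′ along the gene.
Cox6b1: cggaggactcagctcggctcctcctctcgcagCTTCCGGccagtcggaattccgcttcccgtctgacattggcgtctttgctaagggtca
Atp5h: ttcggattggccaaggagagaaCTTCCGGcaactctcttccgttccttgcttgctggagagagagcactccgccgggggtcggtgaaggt
Ndufa5: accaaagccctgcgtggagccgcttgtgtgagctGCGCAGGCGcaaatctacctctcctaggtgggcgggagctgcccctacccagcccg
Sdha: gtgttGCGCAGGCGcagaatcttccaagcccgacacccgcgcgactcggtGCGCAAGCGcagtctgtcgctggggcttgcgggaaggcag
Atp5pb: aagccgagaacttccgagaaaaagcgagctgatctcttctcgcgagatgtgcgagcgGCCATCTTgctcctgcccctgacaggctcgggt

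Many subunit genes differed between the libraries titled fed and the rest. This split by title and header was made after the values had been seen, and it holds chow on both sides. The filter asked for enough counts in only 2 libraries. Genes such as Atp5l, Atp5g2, Atp5md and Ndufa7 were kept through the fed-titled libraries alone, and Ndufb4c through the rest alone. Such a gene had to be high on that side to be tested at all, and this holds for all genes too. For 26 of 77 genes (33.8%) all 4 libraries of chow 3 and S209A lay above all 8 others, against 3.33% of all genes tested. For 2 genes (2.60%, against 2.75%) they lay below. The median subunit was 0.85 higher on the log2 scale in chow 3 and S209A, against 0.08 for all genes, and 18 of 77 genes (23.4%) were over 4-fold higher by mean log2 CPM, against 1.95%. The size of the gap could differ between pools: chow 3 over the mean of chow 1 and 2 was 3.12 in heavy and 3.09 in light for Atp5h, but -0.03 and 2.89 for Cox6b1 and 2.65 and 0.23 for Atp5md (log2). By complex these were 8 of 17 genes of complex V, 4 of 11 of complex IV, 5 of 38 of complex I, 1 of 8 of complex III and 0 of 3 of complex II. Assembly factors had 0 of 43 past this size, and the tricarboxylic acid cycle enzymes had 1 of 14.

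The widest gap was at Cox5b, a subunit on the matrix side of cytochrome c oxidase (chromosome 1, 36691487 to 36693388). It had 1137 and 1194 counts in the heavy and light libraries of chow 3 and 940 and 1076 in those of S209A, but 3 to 19 counts in each of the other 8. On the CPM scale this was a mean of 102.7 against 1.62 CPM, a ratio of 63.4. Cox6c, another nuclear subunit of complex IV, had 250 to 434 counts against 0 to 16. In complex V, Atp5k and Atp5l (subunits e and g, small membrane proteins where the enzyme forms dimers) had 225 to 359 against 2 to 8 and 76 to 236 against 0 to 6. Groups did not overlap for any of these 4 genes, and the chow animals stood on both sides.

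Atp5h, subunit d of the peripheral stalk that holds the ATP synthase head still (chromosome 11, 115415691 to 115419919; promoter shown above), had 308 to 356 counts in the fed-titled libraries and 5 to 41 in the rest. Atp5pb, subunit b of the same stalk, had 317 to 486 against 17 to 118. Ndufa7, an accessory subunit of complex I, had 107 to 175 against 4 to 8. Ndufa4, first named as a complex I protein and now placed in complex IV, had 252 to 413 against 12 to 43. All libraries of the fed-titled animals were again the higher ones. Complexes follow the symbols here, so Ndufa4 was counted with complex I throughout.

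A pair of genes ran the other way. Ndufb4b had 2 to 11 counts in chow 3 and S209A and 8 to 61 in the rest, and Ndufb4c had 0 to 2 against 4 to 45. Their annotated spans are 471 and 485 bases, while Ndufb4, the gene they are named after, covers 6767 bases and had 12 to 40 counts in the fed-titled libraries and 0 to 16 in the rest. The left-out pseudogenes moved the same way as this pair. Ndufa11b had 18 to 142 counts in the 8 libraries of chow 1, chow 2 and keto and 0 in each of the 4 others, and Ndufs6b had 32 to 56 against 0 to 2. Of the 12 kept subunit genes with an annotated pseudogene named after them, 6 were over 4-fold higher in chow 3 and S209A, and of the 65 without one, 12 were. Ndufb4, whose copies are annotated as protein-coding, is among the 65. Pseudogenes under other names were not searched for, so genes among the 65 may have them too. Median differences were 1.93 and 0.75 (log2). Mitochondrial ribosomal RNA took 12.1 to 13.8% of counts in the fed-titled libraries and 12.9 to 74.2% in the rest. The part of alignment, of this share or of reads shared between copies in these gaps was not tested.

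Genes of the same chain behaved differently by genome. All 13 mitochondrially encoded subunits were over 4-fold lower in chow 3 and S209A, with a median of -3.41 (log2), opposite to the nuclear subunits. Nuclear genes with little or no gap were present too. Atp5b, the catalytic β subunit of ATP synthase, lay between 104.9 and 227.2 CPM in all 12 libraries, and Uqcrfs1, the Rieske iron-sulfur protein of complex III, between 22.1 and 49.7 CPM. For both genes the fed-titled libraries overlapped with the rest. Core genes were on both sides: Ndufs1, Ndufs3, Uqcrc1 and Atp5c1 were higher in all fed-titled libraries, by 0.89, 1.55, 0.96 and 1.07 (log2).

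**Figure D1:**
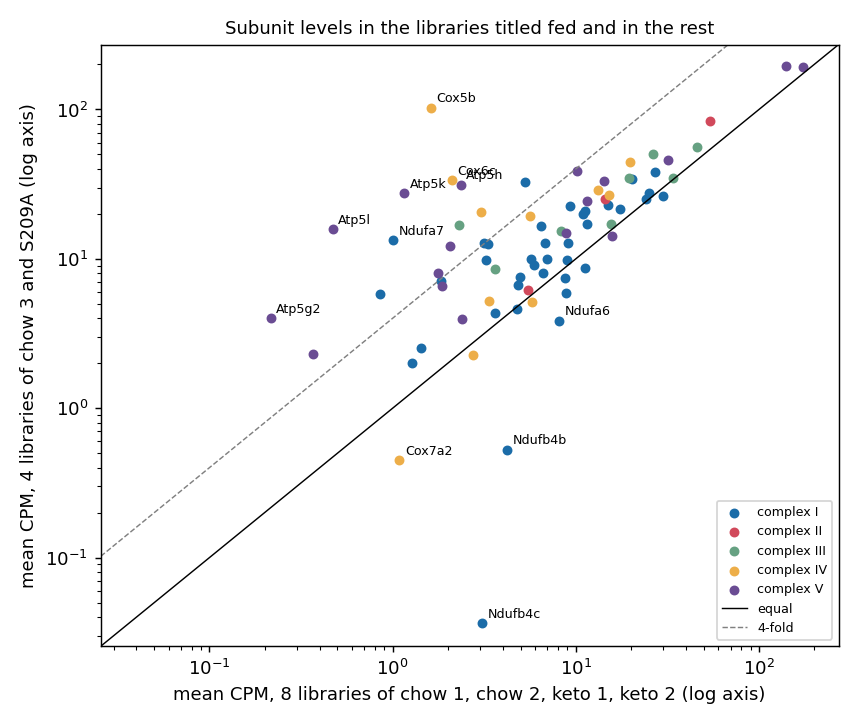
Mean level of each of the 77 kept subunit genes in the 8 libraries of chow 1, chow 2, keto 1 and keto 2 (horizontal, CPM, log axis) and in the 4 libraries of chow 3 and S209A (vertical, CPM, log axis), coloured by complex. The solid line marks equal levels and the dashed line a 4-fold gap, and genes more than 10-fold higher or more than 2-fold lower in chow 3 and S209A are named, with Cox5b 63.4-fold above the solid line.

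Within each animal the heavy and the light library share label and header wording. Their make-up could still differ: in chow 1, mitochondrial ribosomal RNA took 16.7% of counts in heavy and 58.2% in light. The gap of chow 3 from chow 1 and 2 differed between pools for genes such as Cox6b1. Heavy over light is therefore not free of that gap for every gene. In chow, subunit mRNAs lay towards the heavy pool. The median heavy over light of the 77 genes was 0.38 on the log2 scale, with 55 above 0, against a median of -0.09 over all 10555 genes. By complex the medians were 0.40 for complex I (29 of 38 genes above 0), 0.67 for complex II (3 of 3), 0.43 for complex III (6 of 8) and 0.43 for complex V (13 of 17). Complex IV stood at -0.02, with 4 of 11 above 0. No subunit passed alone: edgeR's quasi-likelihood test called 0 of 77 at an adjusted p under 0.05, as DESeq2 did, against 0.227% of all genes by edgeR. At an unadjusted p under 0.05, 7 were higher in heavy (9.09%, against 3.94%) and 0 lower (against 3.02%). The 7 became 0 without chow 1 (against 1.29% of all genes) and 1 without chow 2 (against 1.48%).

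The 3 chow animals were not alike. The median heavy over light of the subunits was 0.81 in chow 1 (62 of 77 above 0, against 46.2% of all genes), 0.30 in chow 2 (48, against 45.9%) and -0.02 in chow 3 (38, against 48.6%). Over all genes the animals' medians lay between -0.08 and 0.02. For 20 subunits (25.97%) heavy was above light in all 3 chow animals, against 12.2% of all genes, and for 4 (5.19%) it was below in all 3, against 16.2%. Some other readouts also changed steadily from chow 1 to chow 3, and others did not. The 10 hepatocyte markers had medians of 1.27, 0.94 and 0.37 in chow 1, 2 and 3, and 8 nuclear RNAs such as Malat1 had -2.49, -1.67 and -0.26. Assembly factors had 0.24, 0.32 and 0.16 and Kupffer cell markers -0.04, -0.51 and 0.43, in no such order. Mitochondrial ribosomal RNA was 16.7% of counts in heavy and 58.2% in light in chow 1, 12.9% and 52.6% in chow 2, and 13.8% and 13.5% in chow 3. Their part in the result was not tested.

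Cox6b1, which sits on the outer face of cytochrome c oxidase and joins its monomers into a dimer (chromosome 7, 30616971 to 30626114), had the lowest p in chow. Its heavy libraries held 12.9, 12.3 and 12.3 CPM in chow 1, 2 and 3, and its light libraries 0.870, 3.31 and 14.7 CPM, on 5, 23 and 189 counts. Heavy was thus steady over the animals, light was low in chow 1 and chow 2, and the pools were not separated in chow 3. The fitted heavy over light was 1.58 ± 0.51 (log2 ± SE, n = 3 animals, adjusted p = 0.195 in edgeR).

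Ndufa5, an accessory subunit in the peripheral arm of complex I (chromosome 6, 24518662 to 24527690), had 13.7, 12.8 and 13.6 CPM in heavy and 3.48, 4.02 and 11.3 CPM in light. Heavy was above light in each chow animal, by 1.25 ± 0.47 (log2 ± SE, n = 3, edgeR adjusted p = 0.368). Atp5j, coupling factor 6 of the ATP synthase stalk, had 80.2, 41.7 and 34.2 CPM in heavy and 14.4, 20.8 and 42.5 CPM in light. It was above light in chow 1 and 2 and below it in chow 3, at 1.03 ± 0.39 overall (edgeR adjusted p = 0.368, n = 3). Ndufa1, a small membrane subunit of complex I, had 19.1, 14.9 and 8.02 CPM in heavy and 7.13, 2.59 and 8.88 CPM in light, a fitted 1.21 ± 0.48 (edgeR adjusted p = 0.419, n = 3).

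Leaving out chow 3 changed these calls. Fitted without it, 5 subunits passed as higher in heavy (6.49%, against 2.83% of 10264 genes): Cox6b1 at 2.67 (edgeR adjusted p = 0.00108), Atp5j at 1.69 (0.000819), Ndufa1 at 1.91 (0.0163), Ndufa5 at 1.78 (0.0458) and Sdha at 1.07 (0.0452). None passed as lower (against 1.14%), and at an unadjusted p under 0.05, 19 were higher (24.7%, against 6.99%) and 0 lower (against 6.44%). The subunit median was 0.59 in that fit, beside -0.16 for all genes.

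The subunits furthest towards light in chow did not pass either. Uqcrb, a small subunit of complex III, stood at -0.96 ± 0.56, Ndufb2 at -1.56 ± 0.94 and Cox7a2l, a protein that links complexes III and IV, at -1.39 ± 0.97 (log2 ± SE, n = 3, lowest edgeR adjusted p = 0.827). Mitochondrially encoded subunits, translated on other ribosomes, had a median of -0.26, with 1 of 13 above 0. Of the related lists, tricarboxylic acid cycle enzymes had a median of 0.45 (11 of 14 above 0), assembly factors 0.40 (27 of 43), electron carriers and coenzyme Q enzymes 0.36 (13 of 16), and 9 regulators such as Ppargc1a 0.01 (5 of 9). edgeR called no gene of these lists. Its unadjusted p was under 0.05 for 4 genes towards heavy, 3 of them of the tricarboxylic acid cycle, and for 4 mitochondrially encoded genes towards light.

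**Figure D2:**
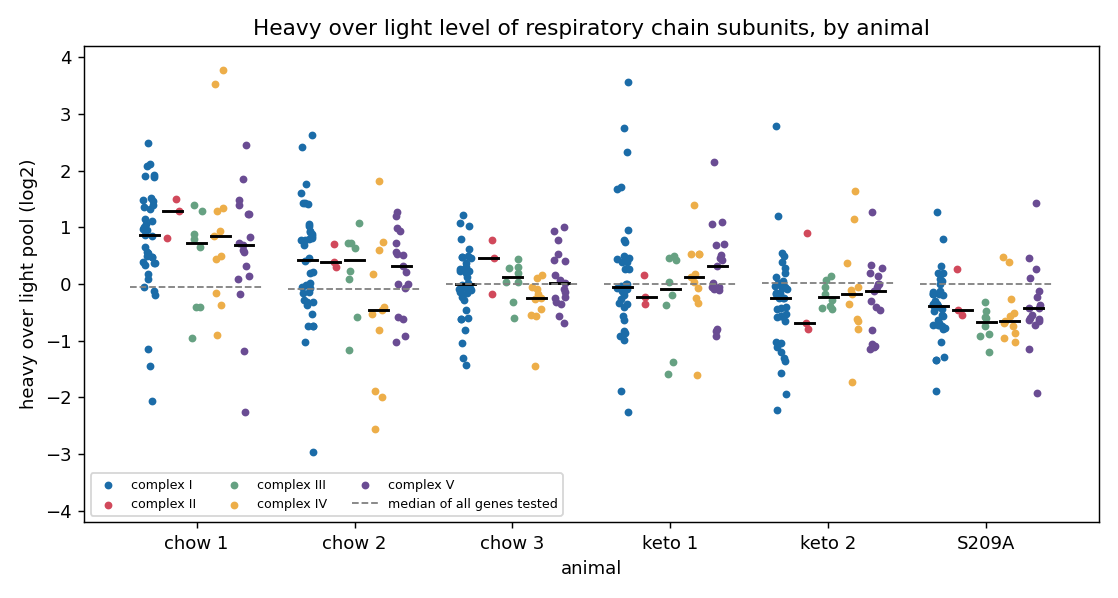
Heavy over light level (vertical, log2) of each kept subunit gene in each of the 6 animals (horizontal), coloured by complex. Black bars are medians of a complex and dashed lines the median of all genes tested, and the subunit medians run from 0.81 in chow 1 to -0.48 in S209A while the dashed lines stay between -0.08 and 0.02.

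On the ketogenic diet the subunits lay slightly towards the light pool. Their median heavy over light was -0.17 with 30 of 77 above 0, against 0.03 for all genes. It was -0.01 in keto 1 (37 above 0, against 48.8%, and 40 below, against 49.1%) and -0.24 in keto 2 (21, against 50.8%). For 31 subunits (40.3%) heavy was below light in both animals, against 23.2% of all genes, and for 12 (15.6%) it was above in both, against 25.9%. edgeR and DESeq2 each called 0 of 77, edgeR calling 0.18% of all genes. At an unadjusted p under 0.05, 1 was higher (against 2.31%) and 2 were lower (against 1.96%, and 2 against 2.11% without chow 3). The median of the hepatocyte markers was -0.29 in each keto animal, and that of the nuclear RNAs 0.73 and 0.27.

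Ndufa10, an accessory subunit of the complex I membrane arm, had 5.50 and 4.06 CPM in heavy and 10.7 and 16.3 CPM in light, so that heavy was lower in both keto animals. The fitted value was -1.46 ± 0.55 (log2 ± SE, n = 2, edgeR adjusted p = 0.800). Ndufs8, a core iron-sulfur subunit of complex I, had 0.786 and 3.67 CPM in heavy and 4.77 and 7.78 CPM in light, again lower in both (-1.74 ± 0.75, n = 2, edgeR adjusted p = 1). Atp5l was the only subunit higher in heavy at an unadjusted p under 0.05, on 6 and 2 counts in heavy against 0 and 0 in light, where a count of 0 allows up to 0.572 and 1.06 CPM. No fold is given for it. Ndufc2, Ndufa6, Cox7c and Ndufa12, the next by p towards heavy, did not pass (unadjusted p from 0.0931 to 0.172, edgeR, n = 2).

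The difference between the diets in heavy over light was tested directly. Its median over the subunits was -0.41 with 17 of 77 above 0, against 0.15 for all genes. In 18 subunits (23.4%) all 3 chow animals were above both keto animals, against 10.1% of all genes, and in 3 (3.90%) all were below, against 13.1%. The 18 included Sdha and Sdhb of complex II, Uqcrh of complex III, Atp5a1 and Atp5b of the ATP synthase head, and the complex I core genes Ndufs1 and Ndufs8. No gene of complex II, at a median of -0.98, and 1 of 8 of complex III were above 0. edgeR and DESeq2 called 0 of 77, while edgeR called 0.189% of all genes. At an unadjusted p under 0.05, 5 were lower in keto (6.49%, against 3.11%) and 1, Atp5l, was higher (1.30%, against 2.93%). The 5 became 1 without chow 1 (1.30%, against 1.55%) and 2 without chow 2 (2.63%, against 1.67%).

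Cox6b1 led this comparison too. Its keto libraries held 3.93 and 1.74 CPM in heavy and 3.81 and 6.36 CPM in light, so that the pools were near each other in keto 1 and light was higher in keto 2. Its heavy over light was lower than in chow by 2.41 (SE 0.82, edgeR adjusted p = 0.442, n = 3 and 2). Ndufa1 had 2.83 and 7.34 CPM in heavy and 11.3 and 7.07 CPM in light in keto 1 and keto 2. Its difference from chow was -2.19 ± 0.77, and that of Ndufa10 was -1.87 ± 0.70 (edgeR adjusted p = 0.510 and 0.573, n = 3 and 2).

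Sdha, the flavoprotein of complex II that oxidises succinate (chromosome 13, 74322255 to 74350240), was among the most deeply counted members, with 161 to 936 counts per library. Chow 1, 2 and 3 had 94.3, 82.6 and 62.1 CPM in heavy and 33.1, 50.7 and 70.4 CPM in light, and keto 1 and 2 had 35.9 and 35.2 CPM in heavy and 45.6 and 56.9 CPM in light. Heavy was above light in chow 1 and 2 and below it in the 3 others. The difference of the diets was -1.19 ± 0.58 (edgeR adjusted p = 0.815, n = 3 and 2), and that of Uqcrc2, a core protein of complex III, was -1.53 ± 0.76 (0.818). Without chow 3, Cox6b1 (-3.49, edgeR adjusted p = 0.00547), Ndufa1 (-2.88, 0.0163) and Sdha (-1.59, 0.0487) passed as lower in keto (3.90% of the subunits, against 1.55% of all genes), 0 passed as higher (against 0.536%), and the subunit median was -0.50.

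In 8 subunits (10.4%, against 2.98% of all genes) heavy was above light in all 3 chow animals and below it in both keto animals, and in 0 (against 4.37%) the reverse held. Among them were Atp5a1 and Atp5b, which form the catalytic hexamer of ATP synthase, and the complex I accessory genes Ndufa5, Ndufa9, Ndufb8, Ndufb11 and Ndufs6. Atp5a1 had a heavy over light of 0.83, 0.52 and 0.16 in chow 1, 2 and 3 and of -0.08 and -0.45 in keto 1 and 2. For Atp5b these were 0.68, 0.22 and 0.08 against -0.11 and -0.30. Ndufs6, an accessory subunit, had 0.66, 0.40 and 0.48 against -0.63 and -0.58. Several of these gaps from 0 were small, and Ndufa9 was at 3.62 CPM in both pools of keto 1.

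**Figure D3:**
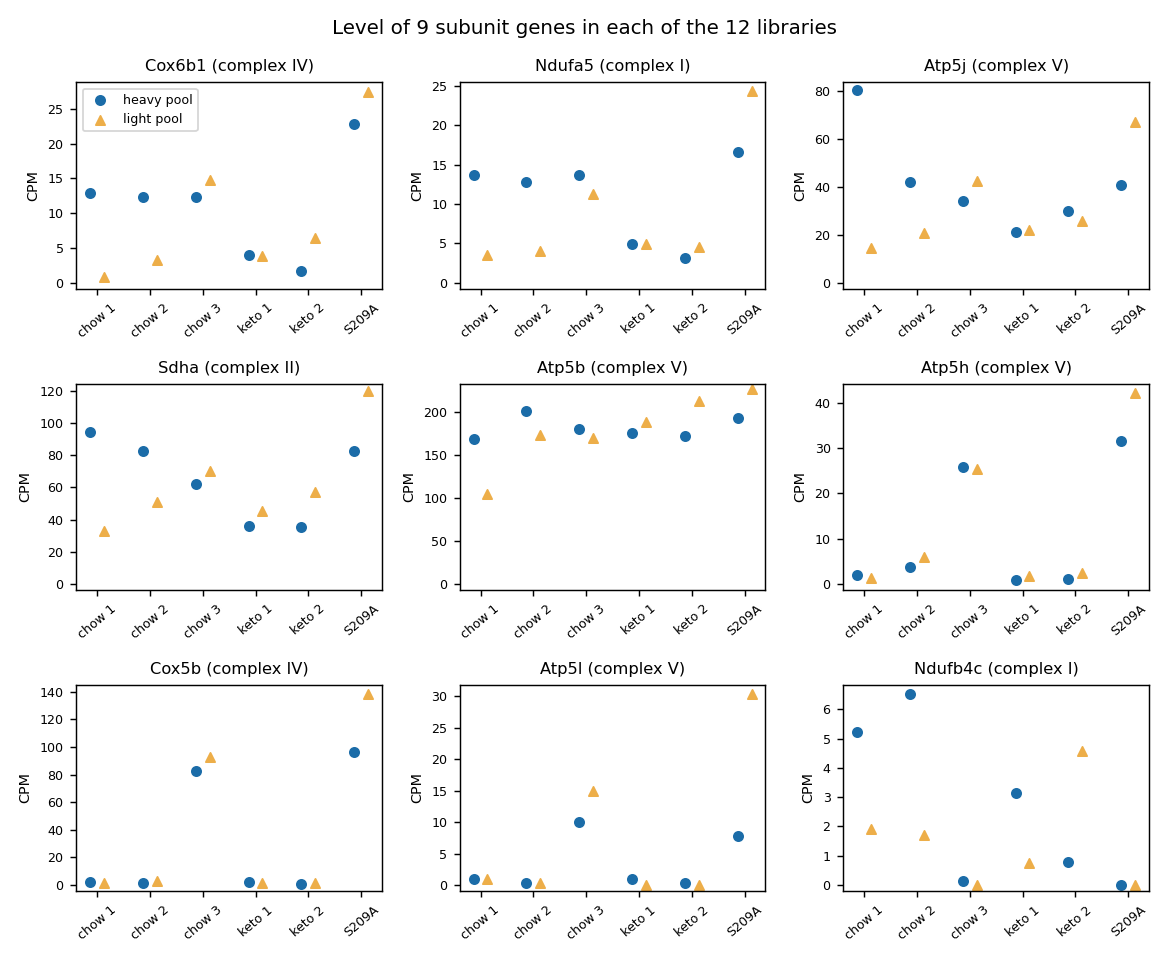
Level (vertical, CPM, linear axes from 0) of 9 subunit genes in the heavy (circles) and light (triangles) library of each of the 6 animals (horizontal). Cox6b1 and Ndufa5 have a low light pool in chow 1 and chow 2 and low levels in both pools in keto, while Atp5h, Cox5b and Atp5l are high in chow 3 and S209A alone and Ndufb4c is near 0 there.

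Within the heavy pool, most subunits were lower on the ketogenic diet than on chow. The median was -0.81 (log2) with 14 of 77 above 0, against -0.04 for all genes. Complex V had 0 of 17 above 0 and a median of -1.25, complex II 0 of 3 and -1.17, complex I 9 of 38 and -0.77, complex III 1 of 8 and -0.39, and complex IV 4 of 11 and -0.33. For 26 subunits (33.8%) both keto libraries lay below all 3 chow libraries, against 13.4% of all genes, and for 5 (6.49%) they lay above, against 14.5%. edgeR called 0 of 77 and 0.0% of all genes, limma-voom called 0 subunits, and DESeq2 called 2, Cox6b1 (adjusted p = 0.0402) and Atp5h (0.0334), or 2.60% against 0.929% of all genes by DESeq2. At an unadjusted p under 0.05 edgeR had 17 lower (22.1%, against 5.16%) and 0 higher (against 3.01%).

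Chow 3 weighs on the size of this median. Without it the median was -0.36, with 24 of 77 above 0 and 0.07 for all genes. Complex II then stood at -1.12, complex V at -0.57, complex I at -0.39, complex IV at -0.11 and complex III at -0.07. With the title wording as a batch term the median was -0.40. Against chow 1 and chow 2 alone, both keto libraries were lower in 33 subunits (42.9%, against 20.4% of all genes) and higher in 10 (13.0%, against 23.1%). At an unadjusted p under 0.05, 15 were lower without chow 3 (19.5%, against 6.48%), and 0 were called by edgeR (against 0.458% lower and 0.195% higher of all genes).

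Several subunits with a low p in the heavy pool had nearly the same value with and without chow 3. Cox6b1, at 2.83 ± 1.55 CPM in keto (SD, n = 2) and 12.5 ± 0.34 CPM in chow (SD, n = 3), differed by -2.12 ± 0.59 (log2 ± SE, edgeR adjusted p = 0.476), and by -2.10 without chow 3. Ndufa5, at 3.98 ± 1.26 against 13.4 ± 0.51 CPM, differed by -1.74 ± 0.55 and by -1.68 without chow 3. Both keto libraries lay below all 3 chow libraries for each.

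Ndufa10 had 5.50 and 4.06 CPM in keto heavy and 20.9, 13.6 and 14.6 CPM in chow heavy, a difference of -1.76 ± 0.55, or -1.80 without chow 3. Sdha differed by -1.17 with chow 3 and by -1.28 without it, and Sdhb, the iron-sulfur subunit of complex II, by -1.26 and -1.12. Atp5pb, whose light and heavy levels are higher in chow 3, differed by -1.79 ± 0.53 and by -1.42 without chow 3 (edgeR adjusted p = 0.490 and 0.265). For these genes the sign and the rough size held in both fits.

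Other subunits had a smaller difference without chow 3. Atp5h had 0.786 and 0.966 CPM in keto heavy and 1.99, 3.77 and 25.95 CPM in chow 1, 2 and 3. Its difference was -3.61 ± 1.07 with all animals and -1.69 ± 0.77 without chow 3. Cox5b differed by -4.24 and then by -0.11, and Cox6c by -2.18 and then by -0.39. Cox5b and Atp5h had the largest differences in the full comparison, and both were high in chow 3.

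**Figure D4:**
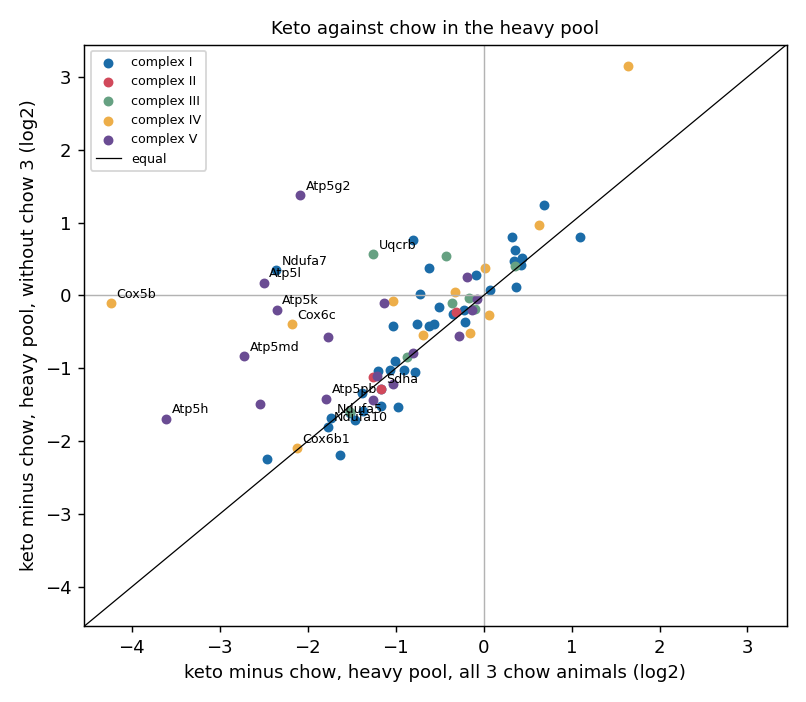
Keto minus chow in the heavy pool (log2) for each subunit gene with all 3 chow animals (horizontal) and without chow 3 (vertical), coloured by complex. Genes on the solid line, such as Cox6b1 at -2.12 and -2.10, have equal values, and genes above it, such as Cox5b at -4.24 and -0.11, have a higher value without chow 3.

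Among the genes higher in keto in the heavy pool none passed. Ndufa6, Cox7a2l, Ndufv3, Cox5a and Uqcrq were the 5 whose keto libraries lay above all 3 chow libraries. Ndufa6, an accessory subunit of complex I, had 12.4 and 10.0 CPM against 4.47, 8.55 and 2.84 CPM, a difference of 1.09 ± 0.62 (edgeR adjusted p = 0.688, n = 3 and 2). Cox7a2l had 5.03 and 2.70 CPM against 0.248, 0.580 and 2.62 CPM (1.65 ± 1.09).

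Other RNA classes moved with diet in the heavy pool. Hepatocyte markers summed to 6290 and 7024 CPM in keto and 8698 to 13656 CPM in chow, with no overlap. Stellate, cholangiocyte and adipocyte markers were also lower without overlap, at 32.5 to 41.5, 1.10 to 2.12 and 0 to 0.629 CPM in keto. Their chow sums were 57.2 to 75.7, 4.08 to 13.4 and 1.30 to 3.97 CPM. Sums of Kupffer cell, sinusoidal endothelium and erythroid markers overlapped. Nuclear RNAs summed to 11061 to 13091 CPM in keto and 1516 to 2669 CPM in chow. All 13 mitochondrially encoded subunits were higher in keto, by a median of 1.54 (log2), with 5 at an unadjusted p under 0.05 and 0 called by edgeR. Tricarboxylic acid cycle enzymes had a median of -0.83 (2 of 14 above 0) and assembly factors -0.27 (18 of 43). Mitochondrial ribosomal RNA took 47.3 and 74.2% of counts in keto heavy and 12.9 to 16.7% in chow heavy. The part of these classes in the subunit difference was not tested.

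In the light pool the subunit median was near that of all genes, and its sign depended on chow 3. It was -0.13 with 29 of 77 above 0, equal to the -0.13 of all genes. It was -0.41 without chow 1, -0.21 without chow 2 and 0.21, with 51 above 0, without chow 3. Both keto libraries lay below all 3 chow libraries in 8 subunits (10.4%, against 14.6%) and above in 8 (10.4%, against 11.2%). edgeR called 0 of 77 and 0.0% of all genes, as did DESeq2 and limma-voom for the subunits. At an unadjusted p under 0.05, 4 were lower (5.19%, against 3.73%) and 0 higher (against 2.33%). The 4 became 15 without chow 1 (19.5%, against 3.6%), 6 without chow 2 (7.89%, against 3.51%) and 1, Atp5l, without chow 3 (1.30%, against 3.23%).

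The 4 were Cox5b, Atp5h, Atp5l and Atp5md, the last a small membrane subunit of ATP synthase. For all 4 genes the libraries of chow 3 and S209A lay above all others. Atp5l and Atp5md passed the filter through those libraries alone. Cox5b had 1.33 and 1.06 CPM in keto light and 1.39, 2.73 and 93.05 CPM in chow 1, 2 and 3, a difference of -4.73 ± 1.65, or -0.75 without chow 3. Atp5l had 0 counts in both keto light libraries and 5, 2 and 192 in chow 1, 2 and 3. For Atp5md the light libraries of both keto animals held 0 counts and those of chow 6, 7 and 16. On the higher side Ndufb11 had 26.1 and 38.2 CPM against 17.2, 20.8 and 17.8 CPM (0.78 ± 0.44, edgeR adjusted p = 0.804, n = 3 and 2). Its keto libraries were above all chow libraries.

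The S209A animal has no replicate, so its values carry no test. Against the mean of the 3 chow animals the subunit median was 0.43 higher in heavy and 1.22 higher in light (log2), beside 0.10 and -0.07 for all genes. In light 46 of 77 subunits were over 2-fold higher (59.7%, against 16.4% of all genes) and 2, Ndufb4b and Ndufb4c, were over 2-fold lower (2.60%, against 22.0%). In heavy 20 were higher (25.97%, against 16.0%) and 3 lower (3.90%, against 12.2%). In light 65 subunits (84.4%) lay above all 3 chow animals, against 27.3%.

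Chow 3 alone shares title wording and header wording with S209A, and this comparison was added after the values had been seen. Against chow 3 the median was 0.22 in heavy, with 58 of 77 above 0, and 0.72 in light, with 69 above 0. All genes were at -0.01 in both pools. In light 16 subunits were over 2-fold higher (20.8%, against 13.3%) and 1, Cox7c, was lower (1.30%, against 19.2%). In heavy 3 were higher (3.90%, against 11.4%) and 0 lower (against 13.0%). The light medians by complex were 0.70, 0.71, 0.75, 0.63 and 0.73 for complexes I to V, a narrow range.

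In this animal the light pool held more of the subunits than the heavy pool. Its median heavy over light was -0.48, with 14 of 77 above 0 (against 49.8% of all genes) and 63 below (against 50.2%), the lowest of the 6 animals. Complex III had 0 of 8 above 0. Sdha had 82.5 CPM in heavy and 120.3 CPM in light, Ndufa5 16.7 and 24.4 CPM, Atp5j 40.5 and 66.8 CPM, and Atp5b 193.5 and 227.2 CPM. In all 4 genes the light value was the higher one. Hepatocyte markers had a median of -0.26 with 1 of 10 above 0 in the same animal, and their part in the subunit values was not tested.

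Of the gene families with tissue-bound isoforms, the widely expressed forms made up nearly all counts. Cox4i1, the common form of subunit 4 of cytochrome c oxidase, had 80 to 554 counts per library, and Cox4i2, its form in lung, had 2 counts in all. Cox6a1 and Cox8a passed the filter, while Cox6a2 and Cox8b, the heart and muscle forms, and Cox8c and Cox7b2, the testis forms, had 0 in all 12 libraries. A count of 0 over all 12 libraries allows up to 0.0344 CPM. Cox7a1, the muscle form, had 5 counts, all in chow 1 heavy. Cox6b2 had 6 and Ndufa4l2 had 6. The 3 genes for subunit c of ATP synthase were all kept. Atp5g1 (41 to 87 counts against 6 to 17) and Atp5g2 (27 to 52 against 0 to 4) were higher in all fed-titled libraries than in the rest, while Atp5g3, at 25.95 to 47.6 CPM against 6.44 to 27.8 CPM, overlapped.

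Uqcr11 of complex III had 0 counts in every library, and Sdhd, a membrane anchor of complex II, had 13 counts in all, none of them in chow 3 or S209A. Its partner Sdhc had 7 to 102 counts per library. Sdhc stood at 5.71, 7.83 and 7.44 CPM in chow heavy and 6.45 and 4.83 CPM in keto heavy, with the groups overlapping. The isoforms above that had 0 to 6 counts, with Uqcr11 and Sdhd, were the 10 genes the filter removed. Complex II therefore rests on Sdha, Sdhb and Sdhc in all medians above.

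Among the other core genes, Ndufv1, which holds the NADH site, had 22.3 and 21.4 CPM in keto heavy and 40.7, 50.3 and 32.0 CPM in chow heavy, with no overlap. Ndufs7, next to the coenzyme Q site, had 9.75 and 6.57 CPM against 11.2, 20.1 and 17.7 CPM, again without overlap. Ndufs1 (11.01 and 9.27 against 10.9, 16.2 and 17.8 CPM) and Cyc1, cytochrome c1 (12.4 and 16.8 against 7.70, 22.8 and 18.4 CPM), overlapped. None passed the test. Ndufb4, Ndufc1, Atp5g2, Atp5md and Cox7a2 had the lowest mean CPM of the kept genes. They and the similarly thin Ndufb4c and Cox7a2l had at most 52 counts in any library, and their single values carry little weight.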

How the data were processed

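Each library has a deposited table of raw counts by Entrez gene ID, and these counts were used unaltered. The authors' tools were Trimmomatic, HISAT2 and StringTie with mouse build mm10, per the submitters' processing notes, while the file headers name Bowtie2 for some libraries. How strand and multiply aligned reads were handled in counting is not given in the sources used here, so genes with near-identical copies are uncertain. Libraries were made from 10 ng of RNA with a stranded kit, per the labels' protocols.

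Symbols, biotypes and coordinates came from the RefSeq table of GRCm38.p6, which matched 25275 of 27179 IDs (1904 unmatched). The tables held 0 ERCC IDs. Genes were kept by edgeR's filterByExpr (minimum count 10): 10555 of all 12 libraries, 10552 heavy and 10551 light. Condition was its grouping, so enough counts in any 2 libraries kept a gene. Libraries were scaled by TMM (factors 0.324 to 3.12), and CPM is relative to the scaled size. The test was edgeR's two-sided quasi-likelihood test (edgeR 4.0.16, R 4.3.3) with Benjamini-Hochberg adjustment over all genes kept and a threshold of 0.05. Heavy against light used 1 model over 12 libraries, blocked by animal, with separate pool effects for chow, keto and S209A, and keto against chow used the 6 libraries of a pool in 3 groups, S209A included. An SE is the absolute log2 value over the square root of F. The heavy and light pools of 1 animal are paired by origin, and their deviations from the group means correlated across genes at r = 0.307, 0.305 and 0.463 in chow 1, 2 and 3 and 0.0616 in keto. S209A differences and per-animal values are log2 CPM with a prior count of 2. The fits were tested on simulated data.

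The members and lists were chosen with earlier results of these data known. Named were the 5 lowest p per direction in each test, the 5 highest and 5 lowest mean levels, isoform sets and core subunits, and any others were named after their values were seen. Alternatives were RLE scaling, protein-coding genes only, DESeq2 1.42.0, limma-voom (limma 3.58.1), other filters, blocks, a title-wording batch and leaving out each wild-type animal. Protein sequences were not used here, and the values of 1 subunit gene are not reported here. Intervals and floors (3 counts) cover counting error only.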

Additional observations from a re-analysis of the deposited data

Results flagged for a closer look

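In 8 subunits every chow animal had a higher CPM in the heavy than in the light pool and both keto animals a lower one. Among them the fitted difference in heavy over light, keto minus chow, was -1.53 for Ndufa5, -1.16 for Ndufs6, -1.09 for Ndufa9, -0.97 for Ndufb11, -0.84 for Ndufb8, -0.77 for Atp5a1 and -0.53 for Atp5b (log2, n = 3 and 2). The edgeR interaction test called none of them, with 0 of 77 subunits called. The pattern held for 2.98% of all genes.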

How the results depend on the processing

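Each comparison was rerun under other settings, of which 5 were chosen after seeing the data. Over the 50 gene values named by rule, 567 of 572 kept their direction. The 5 that turned did so between keto animals: leaving out 1 animal, heavy against light on keto ran from -0.10 to 7.58 for Ndufc2, from -0.074 to 3.45 for Ndufa12 and from -1.99 to 0.047 for Ndufa1, the diet difference from -0.30 to 7.69 for Ndufb2, and keto against chow light from -0.061 to 1.45 for Ndufb5. The 7.58 of Ndufc2 and the 7.69 of Ndufb2 rest on 0 counts in the keto 1 light library, which allow up to 0.572 CPM. The 3.45 of Ndufa12 rests on 1 count in keto 2 light, so the size of these values is not measured. With 1 keto animal left, it is assumed to vary like the other groups. Subunits called, 0 in each comparison, became 2 with DESeq2 in keto against chow heavy (2.60%, against 0.929% of all genes). With no count filter they became 2 in heavy and 2 in light. The unfiltered fits tested a larger set of genes, and shares are not given for them. Of the fits leaving out 1 chow animal, the one without chow 3 called the most. It called 5 in heavy against light on chow (6.49%, against 2.83% of all genes higher and 1.14% lower). In the diet difference it called 3 (3.90%, against 1.55% lower and 0.536% higher). The other comparisons had 0 in each of these fits. The median for keto against chow heavy, -0.81, was -0.30 with the replicate numbers as a replicate block, -0.40 with the title batch, -0.34 over genes overlapping between header wordings (a choice of genes that itself uses the keto levels), and -0.89 to -0.36 leaving out 1 animal. The median for S209A heavy was 0.22 against chow 3. Leave-one-out medians ran from 0.23 to 0.59 for heavy against light on chow, from -0.22 to -0.01 on keto, from -0.62 to -0.22 for their difference and from -0.41 to 0.21 for keto light. Same-numbered chow and keto libraries correlated at -0.067 to 0.046. Heavy and light libraries of a keto animal, paired by origin, reached only 0.0616, so these values cannot decide whether the numbers pair across diets. With no replicate block on the animal, the heavy against light fits called 0 subunits and 0 genes.

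All-gene calls moved more. Against 24 on chow there were 94 with DESeq2, 11 with no filter, 6 on protein-coding genes, 0 at a mean of 50 counts and 5 to 407 leaving out 1 animal. Against 19 on keto these were 3 with DESeq2, 2 on protein-coding genes, 0 at a mean of 50 counts and 6 to 33. Against 20 for the difference they were 10, 5, 0 and 0 to 214. Against 0 in keto heavy there were 98 with DESeq2, 4 with limma-voom, 112 with no filter, 83 with the replicate block, 126 with the title batch and 67 without chow 3, and against 0 in keto light 39 with no filter and 5 with the block. The causes were not tested. With 3 and 2 animals and 3 to 20 counts for many small subunits, single genes are measured coarsely.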
